A study of Homo sapiens with 8 samples.

Results

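The genes described here are those whose symbols begin with RBM and a number or with HNRNP, the names under which many human RNA-binding proteins are listed, apart from RBM12, RBM15 and RBM15B. The rule used symbols alone and no measured value. It found 60 of the 19475 entries in the expression table, 25 of them HNRNP and 35 RBM genes, and 3 more names that occurred only in the peak lists (HNRNPUL2-BSCL2, HNRNPA1P10 and HNRNPA1P33). Of the 60 genes, 51 passed the filter for testing, which asked for 1 FPKM or more on average in the input, as did 11088 genes in all. FPKM are fragments scaled to the length of the transcript and to the total of the library. The cells were HCT116, a human colorectal carcinoma line, given PBS (Control) or *F. nucleatum*, an anaerobe of the mouth that is also seen in colorectal tumours, at 100 bacteria per cell for 2 h. Each group had 2 replicates, and each replicate gave an m6A antibody pull-down (IP) and an input library of polyadenylated RNA. The expression values came from the 4 input libraries, and each of the 4 peak lists from an IP library and its input. The methods of the study call the replicates biological, while the labels do not say what separated them, and p-values measure the spread between these libraries.

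HNRNP proteins coat nascent transcripts in the nucleus and take part in splicing, RNA export and mRNA turnover. RBM proteins share an RNA recognition motif and are a looser group, with members in the spliceosome, the exon junction complex, the nucleolus and RNA decay. N6-methyladenosine (m6A) is a methyl mark that the METTL3 complex places on adenosines of mRNA, mostly in the sequence context DRACH, of which GGAC is the commonest core. Some of these proteins are tied to the mark itself. HNRNPA2B1 has been described as a nuclear m6A reader, HNRNPC and HNRNPG-type proteins bind RNA whose structure m6A has opened, and RBM33 has been described as a partner of the demethylase ALKBH5.

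Stretches of RNA under the antibody peaks of these genes are shown to place the mark in their sequences, with the GGAC core nearest the middle of the region in capitals and the A of that core as the candidate methylated base. All are read 5′ to 3′ on the transcript strand of GRCh37 (hg19), written as DNA. The first 4 come from regions with some of the lowest peak p-values of all members, and all 4 lie in coding sequence.
HNRNPA3, chr2:178082479-178082503, plus strand: tggtggtggtGGACcaggatatgga
HNRNPC, chr14:21679596-21679620, minus strand: ctgaggagggGGACctactggatga
HNRNPF, chr10:43882678-43882702, minus strand: gaccggcccgGGACtgccaggaggt
HNRNPA0, chr5:137088880-137088904, minus strand: cagtaatagtGGACcttacagaggc
The other 3 are from a region listed in both Control libraries and neither *F. nucleatum* library (RBM10), from one with the reverse pattern (RBM27), and from the long 3′UTR of RBM41, which carried the most regions of any member.
RBM10, chrX:47046043-47046067, plus strand: gggcagggaaGGACagagtgttgga
RBM27, chr5:145650536-145650560, plus strand: atactgaactGGACctccacaagag
RBM41, chrX:106306821-106306845, minus strand: tcaatgaagtGGACaaattcctagg

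The libraries were close to each other in size. Relative to the input of Control 1, the input depth was estimated at 0.913 to 1.24 in the other 3, while absolute depths and those of the IP samples are not known, and no pair of libraries held identical values. Between 14566 and 14816 genes lay above 0 in a library. Of 7 epithelial markers 6 were expressed, led by KRT8 at a mean of 2152 FPKM, while VIL1 was near 0. Of 8 leukocyte, fibroblast and endothelial markers only COL1A1 passed the filter, at a mean of 4.77 FPKM, and CD3E was at 0 in all 4 libraries. The summed level of these 8 markers was 3.90 to 4.86 FPKM in Control and 5.31 to 6.05 FPKM in *F. nucleatum*, and its part in the results was not tested.

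Many of the HNRNP genes were among the abundant mRNAs of these cells. The median of the per-gene mean was 103 FPKM over the 21 HNRNP genes tested and 15.6 FPKM over the 30 RBM genes, against 9.45 FPKM over all genes tested. HNRNPA1, which shuttles between nucleus and cytoplasm and represses splice sites, was highest, at 969 and 927 FPKM in Control and 901 and 861 FPKM in *F. nucleatum*. HNRNPC, which binds uridine tracts of nascent RNA, lay at 398 and 397 FPKM in Control and 408 and 391 FPKM in *F. nucleatum*. HNRNPA2B1 lay at 377 and 378 FPKM in Control and 400 and 357 FPKM in *F. nucleatum*. HNRNPA1 was lower in both *F. nucleatum* libraries than in both Control libraries, whereas in HNRNPC and HNRNPA2B1 the *F. nucleatum* libraries lay on either side of Control. HNRNPH1, HNRNPAB and HNRNPK followed, with means of 283, 256 and 249 FPKM. By mean level HNRNPA1 stood apart from all others, HNRNPC and HNRNPA2B1 overlapped, and so did HNRNPH1 and HNRNPAB. The RBM gene with the highest level was RBM39, a splicing factor, with a mean of 89.8 FPKM.

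**Figure D1:**
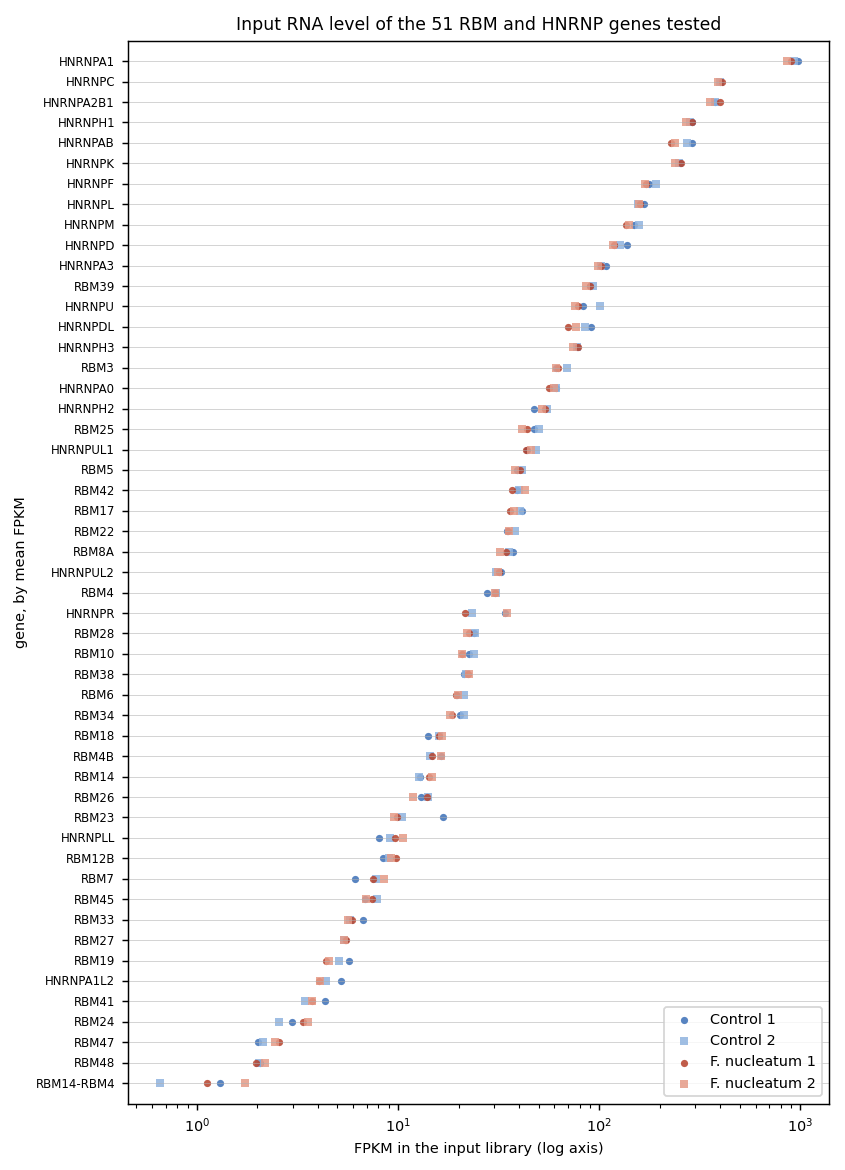
Level of the 51 RBM and HNRNP genes tested, as FPKM in each input library on a log axis, with genes ordered by their mean. Each point is a library. The 4 libraries of a gene lie close together for most genes, and RBM23, HNRNPR and RBM14-RBM4 are the rows with the widest spread.

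In 3 rows a single library or a pair of libraries across the groups made the spread. RBM23 read 16.7 FPKM in Control 1 but 10.5 in Control 2 and 9.89 and 9.52 in *F. nucleatum*. HNRNPR read 33.9 FPKM in Control 1 and 34.7 in *F. nucleatum* 2, against 23.3 in Control 2 and 21.4 in *F. nucleatum* 1. RBM14-RBM4, a joined transcript of neighbouring genes, ranged from 0.653 FPKM in Control 2 to 1.73 in *F. nucleatum* 2. These differences between replicates were as wide as or wider than the difference between the groups. The FPKM were assigned to transcripts by the authors, and a joined transcript shares its reads with RBM14 and RBM4.

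The comparison of *F. nucleatum* with Control asked whether the RNA level of these genes moved within 2 h of coculture. None of the 51 members tested passed limma's test at a Benjamini-Hochberg adjusted p under 0.05 over all genes tested, in either direction. RBM12, RBM15 and RBM15B, left out by the rule, are not covered by this result. Over all genes 0.667% were called higher and 0.135% lower, shares that amount to less than 1 gene in 51. At an unadjusted limma p under 0.05, 2 members were higher and 6 lower, where the background was 7.04% higher and 6.45% lower. The smallest adjusted p among members was 0.173. The differences were small, from -0.41 to 0.30 on the log2 scale of FPKM + 1, with a median size of 0.071 against 0.095 over all genes.

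The direction leaned towards lower levels. The log2 fold change was below 0 in 34 of 51 members, against 5096 of 11088 genes, and its median was -0.042 against 0.014 over all genes. In 17 members both *F. nucleatum* libraries lay below both Control libraries and in 7 both lay above, where the background over all genes was 21.1% lower and 26.1% higher. Below 0 were 17 of 21 HNRNP genes, with a median of -0.044, and 17 of 30 RBM genes, with a median of -0.035, and the difference between the families was not tested. The split at an unadjusted limma p under 0.05, 2 higher and 6 lower, was 0 and 10 when the libraries were centred on their medians. It was 0 and 6 after quantile normalization and 1 and 12 after a correction for GC content. Over all genes the split also moved, from 781 higher and 715 lower to 597 and 925 with median centring. It was 623 and 796 with quantile normalization and 758 and 788 with GC correction. In bulk RNA, less RNA per cell and fewer cells of a kind cannot be told apart.

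**Figure D2:**
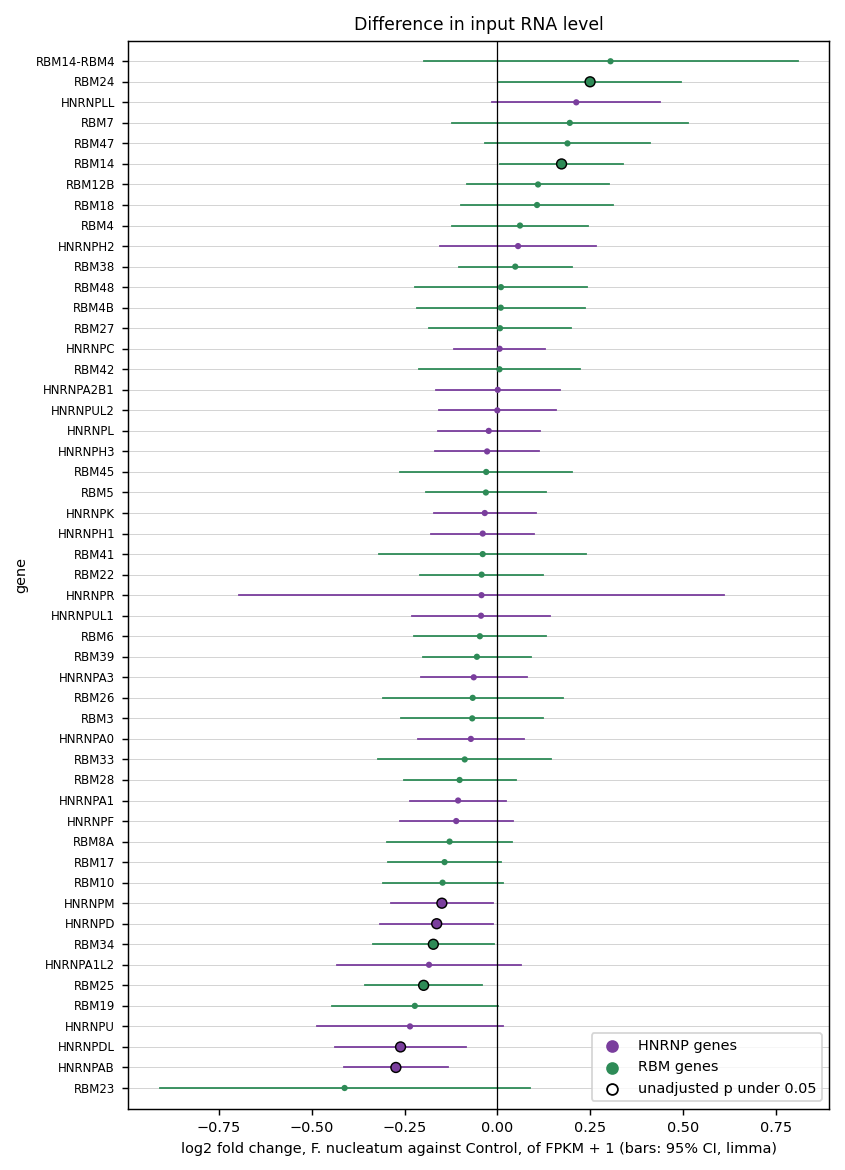
log2 fold change of FPKM + 1 in *F. nucleatum* against Control for the 51 genes tested, with 95% confidence intervals from limma. Purple marks HNRNP and green RBM genes, and black rings mark an unadjusted p under 0.05. RBM24 and RBM14 are ringed above 0, and HNRNPAB, HNRNPDL, RBM25, RBM34, HNRNPD and HNRNPM below 0.

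The A/B-type HNRNP genes, whose proteins carry paired RNA recognition motifs and a glycine-rich tail, gave 3 of the 6 lower values. Over all genes tested 6.45% were lower at an unadjusted limma p under 0.05. In 21.1% of all genes both *F. nucleatum* libraries lay below both Control libraries. HNRNPAB, which also acts as a transcriptional regulator, read 289 and 273 FPKM in Control and 227 and 237 FPKM in *F. nucleatum*. Both *F. nucleatum* libraries were below both Control libraries, and the gap between the groups exceeded the spread within them. Its group means were 281 ± 11.3 and 232 ± 7.50 FPKM (SD, n = 2 libraries each). On the log2 scale it differed by -0.27 (SE 0.056, 95% interval -0.41 to -0.13), with an adjusted p of 0.173 from limma. HNRNPDL, a paralog of HNRNPD, read 91.1 and 85.5 FPKM in Control and 70.1 and 77.1 FPKM in *F. nucleatum*, again without overlap. Its log2 fold change was -0.26 (SE 0.071), with a limma adjusted p of 0.252. HNRNPD, also called AUF1, which binds AU-rich elements and sets the decay of unstable mRNAs, read 138 and 127 FPKM in Control and 118 in both *F. nucleatum* libraries. Its groups did not overlap either, and its log2 fold change was -0.16 (limma adjusted p of 0.353). HNRNPA0, HNRNPA1 and HNRNPA3 had values of -0.071, -0.106 and -0.064 on the log2 scale, and HNRNPA2B1 was at 0.0010. Thus 6 of 7 genes of this type lay below 0, against 5096 of 11088 genes in all. The summed level of the 7 was 2033 and 1954 FPKM in Control and 1875 and 1808 FPKM in *F. nucleatum*.

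The remaining HNRNP types gave 1 gene at an unadjusted p under 0.05, where 6.45% of all genes tested were lower. HNRNPM, a splicing regulator, read 150 and 158 FPKM in Control and 137 and 141 FPKM in *F. nucleatum*. The groups did not overlap, at -0.15 on the log2 scale (SE 0.055, limma adjusted p of 0.346). HNRNPU, a nuclear scaffold protein that binds chromatin and RNA, read 82.7 and 100.9 FPKM in Control and 78.8 and 76.1 FPKM in *F. nucleatum*, a log2 fold change of -0.24 (limma adjusted p of 0.388). Control 2 was the high library, and without Control 1 the adjusted p fell to 0.042, a fit in which the lone Control library is assumed to vary like the others. HNRNPLL, which controls CD45 splicing in lymphocytes, lay on the other side, with 8.09 and 9.13 FPKM in Control and 9.69 and 10.6 FPKM in *F. nucleatum* (log2 fold change 0.21, limma adjusted p of 0.388). Its *F. nucleatum* libraries were both above Control, though the nearest pair was close. The 4 F/H-type genes, whose proteins bind runs of G, ranged from -0.111 to 0.056 on the log2 scale. HNRNPK and HNRNPL, which bind runs of C and CA repeats, were at -0.034 and -0.023.

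Among the RBM genes that act in splicing, 1 of 15 tested was lower and 1 higher at an unadjusted p under 0.05. These counts were near the background over all genes, 6.45% lower and 7.04% higher. RBM25, which is in the early spliceosome, read 47.7 and 50.3 FPKM in Control and 43.7 and 41.4 FPKM in *F. nucleatum*. All 4 libraries kept to their group, at -0.20 on the log2 scale (SE 0.063, limma adjusted p of 0.299). RBM14, a paraspeckle protein and coactivator, read 12.8 and 12.7 FPKM in Control and 14.3 and 14.7 FPKM in *F. nucleatum*. Its groups were separate too, at 0.17 on the log2 scale (SE 0.066, limma adjusted p of 0.358). RBM23 had the lowest fold change of all members, -0.41 on the log2 scale, but its 95% confidence interval ran from -0.91 to 0.087, since Control 1 alone was high. Without Control 2, which leaves that high library as the only Control, RBM23 was at -0.72 with a limma adjusted p of 0.017, and HNRNPAB at -0.31 with 0.042. RBM4 and RBM4B, neighbouring paralogs that regulate alternative splicing, were at 0.061 and 0.0092. Their regions shared an identical stretch of 119 nt, so that reads may be split between them.

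In the nucleolar group, RBM19, RBM28 and RBM34 were all below 0, at -0.22, -0.10 and -0.17, where 5096 of 11088 genes in all were below 0. Groups without overlap and lower in *F. nucleatum* made up 21.1% of all genes. RBM34 read 20.2 and 21.3 FPKM in Control and 18.5 and 18.1 FPKM in *F. nucleatum*, without overlap (SE 0.066, limma adjusted p of 0.356). RBM19, needed for ribosome biogenesis, read 5.70 and 5.06 FPKM in Control and 4.39 and 4.54 FPKM in *F. nucleatum*, also without overlap (limma adjusted p of 0.372). The group of stability factors and tissue-restricted genes had a median of 0.107. RBM24, which regulates splicing and mRNA stability in muscle, was low, at 2.99 and 2.56 FPKM in Control and 3.37 and 3.59 FPKM in *F. nucleatum*. Its *F. nucleatum* libraries were both higher, at 0.25 on the log2 scale (SE 0.098, limma adjusted p of 0.365), a scale on which the added 1 understates the change of low genes. RBM3, a cold-inducible protein, read 60.9 and 69.4 FPKM in Control and 62.6 and 61.4 FPKM in *F. nucleatum*, with overlapping groups. In the group tied to RNA decay and export, RBM7, RBM26, RBM27 and RBM33 ranged from -0.088 to 0.195.

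RNA-binding proteins of the same kinds under other names also gave no call. Of 28 such genes tested, among them PTBP1, MATR3 and SFPQ, none passed limma at an adjusted p under 0.05. Without adjustment 2 fell under 0.05, both lower, where the background over all genes was 6.45% lower and 7.04% higher. Their median log2 fold change was -0.055. PTBP3 had the largest value of that list, -1.05 on the log2 scale, which came from 1 library at 1.61 FPKM beside 3 at 9.97 to 10.2 FPKM.

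Antibody peaks were frequent in these genes. Of the 51 members tested, 49 (96.1%) had a peak in at least 1 list, against 83.9% of all genes tested, and 44 (86.3%) had a region with a peak in all 4 lists, against 67.2%. The members' median level was higher, 31.7 against 9.45 FPKM, and the part of that difference was not tested. The lists held 93 and 92 peaks of these genes in Control and 106 and 94 in *F. nucleatum*, a difference of 7.50 peaks between the means of 92.5 ± 0.707 and 100 ± 8.49 (SD, n = 2 lists each). The exact permutation test gave p = 0.33, the smallest that 2 lists against 2 allow. Without the *F. nucleatum* 1 list the difference was 1.5 peaks, and over peaks with a p of at most 1e-05 it was 3. The number of genes with a peak was 48 and 51 in Control, against 51 and 49 in *F. nucleatum*, with overlapping groups. The peaks covered 47557 and 48991 bases in Control and 49913 and 43975 bases in *F. nucleatum*. Their median length was 420 bases in both Control lists and 330.5 and 344.5 bases with *F. nucleatum* (p = 0.33, exact permutation test), whereas the median over all peaks was 300 and 318 bases in Control and 301 and 300 bases in *F. nucleatum*. Between 7 and 16 of the members' peaks in a list overlapped a peak listed under another name, such as HNRNPUL2 with HNRNPUL2-BSCL2, HNRNPH2 with RPL36A-HNRNPH2 and HNRNPA1 with HNRNPA1P10, so the same RNA was in part counted under more than 1 name.

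More of the peaks in these genes lay in coding sequence than in any other part of the transcript. A peak was placed by its midpoint on the canonical transcript, with a class of its own for the 100 nt on either side of the stop codon. In Control 59.8% and 59.3% of the members' placed peaks were in coding sequence, and in *F. nucleatum* 52.1% and 52.4%, against 45.9% and 47.0%, and 44.4% and 44.2%, of all peaks. The share was above that of all peaks in each of the 4 lists when the midpoint decided the class. When the start of the peak decided it, the order turned in every list. The shares were then 53.6%, 56.2%, 52.4% and 55.4% of the members' peaks, against 59.2%, 59.5%, 57.8% and 57.9% of all peaks. Fewer of the members' peaks were placed by start, 69, 73, 84 and 74, than by midpoint, 82, 81, 94 and 82. Whether these genes have an excess of coding peaks thus depended on the placement, and the part of the unplaced peaks was not tested. Stop codon peaks made up 7.32% and 12.3% of the members' peaks in Control and 8.51% and 9.76% in *F. nucleatum*, below the 16.6% to 16.9% of all peaks in every list, and by start they were also below in every list. The 3′UTR held 26.8% and 25.9% of the members' peaks in Control and 31.9% and 31.7% in *F. nucleatum*. Of all peaks it held 32.9% and 31.7%, and 35.2% and 35.5%, more in every list. By start this order turned too, with 23.2%, 21.9%, 29.8% and 25.7% of the members' peaks against 22.4%, 21.1%, 23.7% and 23.9%. The 5′UTR held 2.47% to 7.45% of the members' peaks by midpoint, against 3.41% to 4.63% of all peaks. Between the groups, the coding share was lower by 7.22 percentage points and the 3′UTR share higher by 5.43 in *F. nucleatum*, without overlap, each with an exact permutation p = 0.33. Over all peaks the differences were -2.20 and 3.08 points. Placed by their start, the members' peaks differed by -1.0 point in coding sequence, and the 5′UTR difference turned from 2.49 to -4.06 points.

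**Figure D3:**
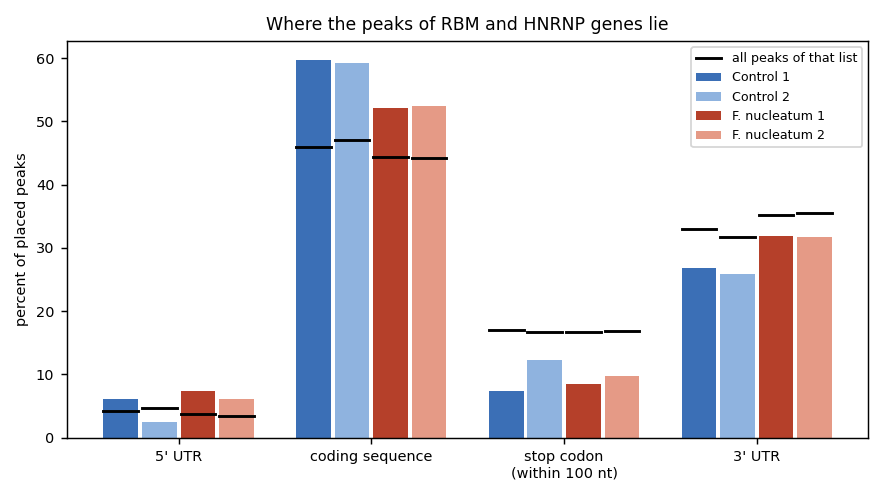
Percent of placed peaks of RBM and HNRNP genes in each part of the transcript, placed by midpoint, as 1 bar per list (blue Control, red *F. nucleatum*), with black lines for all peaks of the same list. The bars lie above the lines in coding sequence and below them at the stop codon in all 4 lists, and the red bars are lower than the blue ones in coding sequence. Placed by start, the coding shares lie below those of all peaks.

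Peaks of the 4 lists that shared at least 1 base on the same strand were merged into 109 union regions, out of 22001 in all. Of these, 65 (59.6%) had a peak in all 4 lists, against 51.5% of all regions, and 22 (20.2%) in a single list, against 25.6%. Of the HNRNP regions 30 of 40 (75%) were in all 4 lists, and of the RBM regions 35 of 69 (50.7%), near the share of all regions. The difference between the families was not tested, and it went with the level of the RNA, a median of 103 against 15.6 FPKM, whose part was not tested either. Regions in all 4 lists were longer than those in a single list, with a median of 600 against 91 bases, and 56 of 65 held a GGAC, against 9 of 22. Length alone raises the chance of a match, so the motif was also counted in the middle 101 nt of each region that was long enough, on the transcript strand. There GGAC was found in 43.2% of 95 member regions and 42.7% of all regions, and GGACT, which is counted within GGAC, in 12.6% and 14.8%.

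The strongest peaks were in abundant HNRNP mRNAs. The p of a peak was the only value in the lists, and it was read as the authors' p-value for IP against input, which falls with coverage as well as with enrichment. It was listed as 0 in all 4 lists for 1 region each of HNRNPA2B1 and HNRNPF. HNRNPC and HNRNPA3 had 0 in both Control lists and 1e-263 and 1e-273, and 1e-269 and 1e-213, in the *F. nucleatum* lists. The HNRNPC region (chr14:21679353-21680053, 359 exonic bases) held 1 GGAC, shown above, and had its middle at -150 nt, counted from the stop codon along the transcript. HNRNPA1, the most abundant member, had a weaker region, with p between 6.3e-78 and 3.2e-71 over the 4 lists. That region also held peaks listed as HNRNPA1P10, which gave the 6.3e-78, and the lowest p listed as HNRNPA1 was 5e-76. HNRNPA1L2 is a copy of HNRNPA1 on another chromosome, and the longest identical stretch of their regions was 133 nt, so signal in either is uncertain. RBM33 had 6 regions, 3 of them in all 4 lists. HNRNPH1 had a region at its stop codon without GGAC, with p between 1e-112 and 7.9e-91. Peaks of RBM4 and of RBM14 did not overlap each other within a list. They were merged into 1 region through peaks listed under the joined transcript, so its p mixes both genes.

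In regions with a peak in all 4 lists, the p-values of the HNRNP genes leaned to weaker peaks in *F. nucleatum*. This comparison was added after the values were seen. Over both families the p was higher in both *F. nucleatum* lists than in both Control lists in 22 of 65 regions (33.8%), where the background was 18.9%, and lower in 6 (9.23%), where it was 15.7%. In HNRNP genes it was higher in 15 of 30 regions (50%) and lower in 1 (3.33%). In RBM genes it was higher in 7 of 35 regions (20%) and lower in 5 (14.3%), near the background on both sides. The difference between the families was not tested. Among the 46 member regions whose lowest p was at most 1e-20, the counts were 17 and 1, against a background of 22.2% and 13.9%. Each time 1 list was left out, the members' share with higher p was 36.9% to 61.5%, against 24.4% to 44.4% of all regions. The share with lower p was then 13.8% to 32.3%, against 21.3% to 41.9% of all regions, with 30 higher and 18 lower without Control 2 and 24 higher and 21 lower without *F. nucleatum* 2. A p depends on the depth of the IP library, which was unknown, and on the level of the RNA, and the part of either was not tested. The RNA level leaned lower over the members, but not in every gene with a weaker peak. Among the genes with a weaker peak, HNRNPAB was at -0.27 and HNRNPM at -0.15 on the log2 scale of RNA. HNRNPL was at -0.023, HNRNPC at 0.0061 and RBM14 at 0.17.

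HNRNPM, HNRNPU, RBM8A and HNRNPL, chosen after their values were seen, give examples of wide gaps. The HNRNPM region at chr19:8509772-8527430 had p of 1e-126 and 1e-176 in Control, against 1e-53 and 1.6e-52 in *F. nucleatum*. A second HNRNPM region (chr19:8532444-8550721), in coding sequence, had p of 3.2e-94 and 1e-114 in Control, against 4e-31 and 2.5e-36 in *F. nucleatum*. Both regions were weaker in both *F. nucleatum* lists, as was the HNRNPM mRNA level. The coding region of HNRNPU at chr1:245025811-245027618 had p of 4e-34 and 2.5e-41 in Control, against 1.6e-11 and 1.6e-07 in *F. nucleatum*. The other HNRNPU region, at chr1:245017577-245019796, had p of 1e-138 and 1e-111 in Control and 1e-128 in both *F. nucleatum* lists, so the peaks within this gene did not move together. RBM8A, which encodes the exon junction complex protein Y14, had p of 1.3e-68 and 2.5e-64 in Control, against 5e-35 and 2.5e-35 in *F. nucleatum*. The coding region of HNRNPL had p of 7.9e-33 and 3.2e-56 in Control, against 2.5e-13 and 2e-21 in *F. nucleatum*. On the log2 scale the RNA of RBM8A differed by -0.13 and that of HNRNPL by -0.023. The opposite order was seen in RBM33 at its stop codon (chr7:155559348-155568015), with p of 8.1e-06 and 2e-08 in Control, against 2.5e-15 and 7.9e-13 in *F. nucleatum*. RBM33 also had a coding region that was weaker in both *F. nucleatum* lists, with p of 2e-23 and 2e-25 in Control, against 1e-22 and 6.3e-16 in *F. nucleatum*.

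**Figure D4:**
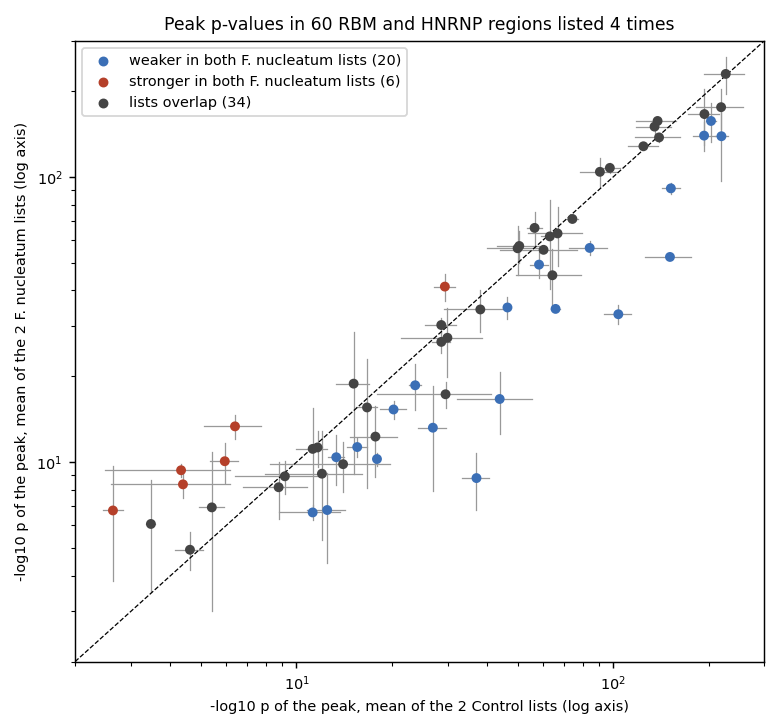
Peak p-values of 60 RBM and HNRNP regions found in all 4 lists, as -log10 p on log axes, with the mean of the Control lists across and of the *F. nucleatum* lists upward; lines span the 2 lists of a group, and 5 regions with a p listed as 0 are left out. In 20 regions (blue) both *F. nucleatum* lists are weaker than both Control lists and in 6 (red) both are stronger, and 5 of the 6 red points lie among the weaker peaks, the exception being a region of RBM28.

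Regions that appeared or disappeared with the treatment were few. There were 2 of 109 regions (1.83%) with a peak in both Control lists only, where the background was 2.64%, and 4 (3.67%) with a peak in both *F. nucleatum* lists only, where it was 2.38%. These shares were near the background. With peaks of p at most 1e-05 alone the counts were 1 and 0 of 82 regions, where the background was 2.59% and 2.25%. When regions were matched by a reciprocal overlap of 50%, the counts were 5 and 8 of 149, where it was 2.60% and 2.63%.

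Both regions listed in Control only were weak. The RBM10 region (chrX:47045886-47046154) covered the stop codon, with p of 4.9e-04 and 8.5e-05 in the Control lists, whose peaks touched by a single base. The GGAC shown above lies in the Control 2 peak alone. RBM10, a splicing regulator that is mutated in lung cancer, had 3 peaks in Control 1, 1 in Control 2 and 0 in either *F. nucleatum* list, at levels of 22.5 and 23.9 FPKM in Control and 20.8 in both *F. nucleatum* libraries. The only other member with peaks in Control lists alone was HNRNPA1P33, a pseudogene with 1 peak in Control 2, and HNRNPK and RBM18 had peaks in *F. nucleatum* lists alone. The RBM41 region (chrX:106308897-106309047) lay in the 3′UTR with p of 0.010 and 0.0022.

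The 4 regions listed in *F. nucleatum* only were also weak, with a lowest p of 5.2e-07 to 1e-04. RBM27, which takes part in nuclear RNA decay, had a coding region (chr5:145647325-145650600) with p of 5.2e-07 and 0.0020 and the GGAC shown above. The other 3 were in 3′UTRs and held no GGAC. They were in RBM24 (chr6:17292752-17292932, p of 4e-05 and 5.1e-05), HNRNPK (chr9:86584073-86584192, p of 8.1e-04 and 1e-04) and HNRNPL (chr19:39327148-39327238, p of 0.0011 and 2.1e-06). For HNRNPK it was the single region of an mRNA at 238 to 254 FPKM in the 4 libraries. In a weak region a peak present in one list and not in another shows a call on either side of a threshold, not the absence of m6A.

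RBM41, whose protein has an RNA recognition motif, had 8 regions at a mean of only 3.82 FPKM. It had 7 peaks in each of Control 1, Control 2 and *F. nucleatum* 1 and 6 in *F. nucleatum* 2. Of the 8 regions, 7 lay in the 3′UTR and together spanned 3877 bases, in which GGAC occurred 3 times and 4 of the 7 regions held none. The 3′UTR region with the lowest p (chrX:106309107-106310007) had p of 1e-17 and 5e-14 in Control, against 2.5e-29 and 8.1e-10 in *F. nucleatum*, with the *F. nucleatum* lists on either side of Control. In 2 other RBM41 regions the p was lower in both *F. nucleatum* lists. The 3′UTR region at chrX:106306138-106307098, the source of the sequence shown above, had p of 4.6e-06 and 2.9e-07 in Control, against 2e-12 and 3.5e-09 in *F. nucleatum*. The coding region at chrX:106331737-106332007 had p of 0.0036 and 0.0015 in Control, against 1.9e-10 and 0.00015 in *F. nucleatum*.

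**Figure D5:**
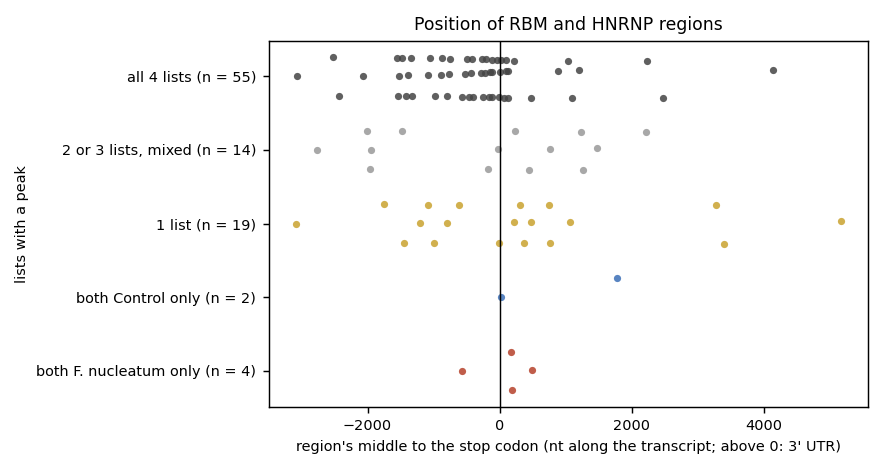
Distance of the middle of each placed RBM and HNRNP region from the stop codon, along the transcript, with regions grouped by the lists they were found in and spread upward only to separate points. Most of the 55 placed regions of all 4 lists lie before the stop codon, and 3 of the 4 regions found in *F. nucleatum* only lie after it.

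Some members had few peaks or none. RBM3 and HNRNPLL passed the filter and had no peak in any list, RBM3 at a mean of 63.6 FPKM and HNRNPLL at 9.37 FPKM. Of the 9 genes not tested, 4 were listed at 0 in all libraries (RBM11, HNRNPCL1, HNRNPCL2 and HNRNPCL4), and RBM20, RBM43, RBM44, RBM46 and HNRNPCL3 had means from 0.0028 to 0.374 FPKM. Of these 9 genes RBM20 alone had peaks, 1 in Control 2 and 1 in *F. nucleatum* 1. RBM47, an epithelial RNA-binding protein, had 5 regions at a mean of 2.29 FPKM, none of them in all 4 lists.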

How the data were processed

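HCT116 input and IP libraries from Control and *F. nucleatum* were sequenced, 2 replicates a group, 8 samples in all. Per the labels, Trim Galore 0.3.3, HISAT2 2.1.0 and StringTie were used with hg19. The authors computed the deposited FPKM from the input libraries. They scale for length and total only. The deposited peak lists were called by the authors for each replicate, and their score column (0 to 0.012) was read as a p-value. The study's methods name MACS2, but the exon blocks look like exomePeak output, and the program used remains unsettled.

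The limma package (version 3.58.1, R 4.3.3, lmFit and eBayes with trend) was applied to log2(FPKM + 1) of 11088 genes averaging 1 FPKM or more, with Benjamini-Hochberg adjustment over all of them. A count model was not used, since FPKM are not counts. Relative input depth came from the ratios of values no higher than 0.05 FPKM. Regions and motifs were read from GRCh37 with GENCODE 44, on canonical transcripts holding at least 90% of a region's bases, in Python 3.11.15 with NumPy 2.4.6, pandas 2.3.3 and pysam 0.24.0. For group means of the lists an exact two-sided permutation test was used, which has 3 splits. The statistics were tested on simulated data.

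Genes were named when they had an unadjusted p under 0.05, 1 of the 8 largest fold changes, a region in 1 group only, 1 of the 5 highest numbers of regions or lowest p, 1 of the 6 highest levels, no peak, or a known tie to m6A or a close copy. Other genes were named after their values were seen, and some items are not reported here. The members, gene lists and rules were chosen with earlier results of these data known. Alternatives were another pseudocount, no filter, quantile normalization, median centring, GC correction (501-gene windows), no trend, a replicate block, each library left out, stricter peaks, assignment by exons, reciprocal overlap and placement by the start.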

Additional observations from a re-analysis of the deposited data

How the results depend on the processing

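The libraries number 2 a group, FPKM carry no counts, and the IP depth is unknown, so a difference of the size seen in most of these genes could not be told from the spread. No member was called higher under any alternative tried, and the number called lower was 0 in all but the fits without Control 1 or Control 2, with a range of 0 to 2 when 1 library was left out (HNRNPU without Control 1, RBM23 and HNRNPAB without Control 2). At an unadjusted limma p under 0.05 the number of members higher was 2 in the main analysis. It was 0 with quantile normalization, 0 with median centring, 1 with GC correction and 1 with the replicate block. With no trend it was 3. The number lower, 6, was 10 with median centring and 12 with GC correction, but 4 with no trend and 5 with the replicate block. It fell when either *F. nucleatum* library was left out, as it did over all genes, and rose when either Control library was. Those fits leave 1 library in a group. Over all genes the numbers higher and lower were 781 and 715 in the main analysis. They were 623 and 796 with quantile normalization and 597 and 925 with median centring. With GC correction they were 758 and 788, with no trend 853 and 628, and with the replicate block 780 and 680. Same-numbered libraries of the groups did not deviate together over all genes (r = 0.024 across 11088 genes). Across the 51 members r was -0.408, a value that a few rows with a wide spread can set. HNRNPR read 33.9 and 23.3 FPKM in Control 1 and 2, against 21.4 and 34.7 FPKM in *F. nucleatum* 1 and 2. RBM14-RBM4 read 1.30 and 0.653 FPKM, against 1.13 and 1.73 FPKM. The part of these rows in r was not tested, so it shows no opposite lean of the members in general. The replicate block left 0 members called. For peaks per list the replicate block gave the same 7.50, from differences of 13 and 2 between lists of 1 number.

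Regions in Control only, 2 in the main analysis, were 1 at p of at most 1e-05 and 5 with reciprocal overlap. They were 2 to 9 without 1 list, where only 1 list of a group is left to decide. Over all regions the shares were 2.59%, 2.60% and 4.44% to 11.3%, against 2.64% in the main analysis. The largest count, 9 of 106 regions, came without Control 1, where the share over all regions was 11.3%. Regions in *F. nucleatum* only, 4 in the main analysis, were 0, 8 and 6 to 13. Over all regions these shares were 2.25%, 2.63% and 4.31% to 11.3%, against 2.38% in the main analysis. The largest count, 13 of 107 regions, came without *F. nucleatum* 2, where the share over all regions was 11.3%. The difference in peaks per list was 1.5 to 13.5 without 1 list. The 5′UTR difference reversed to -4.06 points by peak start. The stop codon difference of -0.70 points was -3.21 to 1.82 without 1 list. Regions with lower p in both *F. nucleatum* lists, 6 of 65, were 9 to 21 without 1 list, and those with higher p, 22, were 24 to 40, choices added after seeing the data.

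Several fold changes near 0 changed sign. HNRNPA2B1 was -0.010, -0.023 and -0.040 under quantile normalization, median centring and GC correction, HNRNPK 0.019 under the first, and HNRNPC -0.018 and -0.026 under the other two. RBM27 was -0.035, -0.017 and -0.031, and RBM4B -0.0033, -0.015 and -0.016. Without 1 library the ranges were HNRNPA2B1 -0.080 to 0.082, HNRNPC -0.024 to 0.036, HNRNPH1 -0.087 to 0.0076, HNRNPH2 -0.050 to 0.162, HNRNPK -0.082 to 0.014, HNRNPL -0.068 to 0.021, HNRNPUL1 -0.119 to 0.031, RBM27 -0.0090 to 0.023, RBM3 -0.160 to 0.024, RBM4 -0.014 to 0.136, RBM41 -0.169 to 0.090, RBM4B -0.076 to 0.094. The causes were not tested.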
